A study of Homo sapiens with 3 samples.

Results

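The genes described here encode the proteins of the cytosolic ribosome. They were taken as probe sets annotated with exactly 1 gene symbol, where that symbol was RPL or RPS and a number with an optional A or X, or was RPSA, RPLP0, RPLP1 or RPLP2; kinases, paralogues ending in L and pseudogenes were left out. The rule found 111 probe sets of 52 genes, 20 of the small subunit and 32 of the large, out of 19775 genes with a probe set of 1 symbol. Where a gene had several probe sets, the brightest by mean log2 signal over the 3 arrays was used, and the ratios between arrays played no part in the choice. A further 64 probe sets list such a symbol beside another, in 56 cases that of a small nucleolar RNA hosted in an intron, so 15 genes reached only in that way are not analysed here. RPSA and RPLP0 are not among the 52 genes.

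Total RNA of 3 lines made from HT1080, an established human fibrosarcoma line, was hybridised to 1 Affymetrix array each. The Zeo line was mock-transfected, the RECK line stably carries a pZeoSV2(+) construct of RECK, a membrane-anchored inhibitor of matrix metalloproteinases, and the RECK/4NQ line carries the construct of a version whose 4 N-glycosylated asparagines were changed to glutamine. All lines were grown under the selection drug Zeocin, and whether a line is 1 clone or a pool is not given in the sources used here. There are no replicates, so every value below compares 1 array with another, without a test, and an effect of the transfected gene cannot be told apart from any other difference between lines.

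The cytosolic ribosome has a small subunit, which holds the mRNA and decodes it, and a large subunit, which joins amino acids. Its proteins are needed in nearly equal numbers, their mRNAs are among the most abundant of a growing cell, and most of these mRNAs start with a C followed by a run of C and T letters, the terminal oligopyrimidine (TOP) tract, through which mTOR signalling and the RNA-binding protein LARP1 control their translation. The group is often used as a steady reference between arrays.

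The start sites below are shown because they are the feature by which this family is recognised and because they allow the members that stood apart between the lines to be set beside the steady ones. Each line gives 30 bases, 10 before the annotated RefSeq start and 20 from it, on the coding strand of GRCh38.p14, with the C and T run in capitals; RPL34 and RPS19 have 2 annotated starts, of which the one listed earlier is shown; the other has no such run at the start in either gene, and none within 5 bases of it in RPL34. RPS24, RPL31, RPL22 and RPL34 differed most between the lines among the 49 members with a mean signal of at least 1000, RPS6 and RPL38 were lowest on the RECK array, RPS16, RPS10 and RPS19 are the brightest members, and RPL22L1 is a paralogue outside the rule.
RPS24, chr10:78033853-78033882, plus strand: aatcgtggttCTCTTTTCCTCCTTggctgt
RPL31, chr2:101002279-101002308, plus strand: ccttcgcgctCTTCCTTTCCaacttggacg
RPL22, chr1:6199576-6199605, minus strand: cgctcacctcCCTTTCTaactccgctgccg
RPL34, chr4:108620566-108620595, plus strand: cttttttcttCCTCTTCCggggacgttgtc
RPS6, chr9:19380217-19380246, minus strand: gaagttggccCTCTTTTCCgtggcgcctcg
RPL38, chr17:74203668-74203697, plus strand: aagtctcgttCTTTTTCgtccttttccccg
RPS16, chr19:39435930-39435959, minus strand: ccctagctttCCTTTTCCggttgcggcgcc
RPS10, chr6:34426050-34426079, minus strand: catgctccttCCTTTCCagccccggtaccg
RPS19, chr19:41860245-41860274, plus strand: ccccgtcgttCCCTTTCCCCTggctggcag
RPL22L1, chr3:170870176-170870205, minus strand: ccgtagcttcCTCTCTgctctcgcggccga

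All 10 of these starts have a C at the annotated position followed by at least 4 C or T letters, and the run is 14 letters in RPS24, 10 in RPL31, 7 in RPL22, 8 in RPL34, 9 in RPS6 and 11 in RPS19. At the starts shown, members that differed between the lines and members that did not both have this feature. Of the 46 members with a promoter entry, 34 have such a start, which is 64.2% of their 53 entries against 4.07% of all 35116 entries. When the C may lie up to 5 bases from the annotated start, the shares were 83.0% and 21.1%. In the window from 250 bases before to 50 bases after the start, CCGGAAG, the core bound by ETS factors, was present on either strand in 39.6% of member entries and 10.3% of all, and GGGCGG, the SP1 core, in 50.9% and 45.0%. TATAAA was present in 5.66% and 11.5%, and AAGATGG, part of the YY1 motif, in 9.43% and 5.84%. These matches are letters in a window and not measured binding sites.

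Signals were made with MAS5, which subtracts an estimate from mismatch probes, and are linear intensities as deposited. In what follows, values given as 3 numbers for a gene are the signals of Zeo, RECK and RECK/4NQ, and those given as 3 numbers for ratios are RECK over Zeo, RECK/4NQ over Zeo and RECK over RECK/4NQ. The median signal of all probe sets was between 17.3 and 20.3 on the 3 arrays and the highest between 18920 and 19554. The median log2 ratio of the 14282 genes with a mean at or above a floor of 12.3, which 40% of all values lie under, was -0.195, -0.12 and -0.06. The hybridisation controls, spiked into each sample, had mean log2 ratios of 0.34 ± 0.17, -0.05 ± 0.12 and 0.39 ± 0.13 (SD over 18 probe sets), so they were brightest with RECK. The brightest of 5 RECK probe sets read 264, 387 and 442. Of 7 mesenchymal markers all were above the floor on every array, VIM at 10307 to 10704 and LGALS1 at 10845 to 12093, while PLAUR read 5182, 3319 and 4612 and S100A4 94.4, 117 and 57.6. Of 6 epithelial markers, EPCAM, KRT19 and CLDN4 were below the floor on every array and CDH1 was above it only in RECK/4NQ, at 15.6, while KRT18 read 9895, 7371 and 8807 and KRT8 1306, 1659 and 1039. Of 4 blood markers CD14 was below the floor, PTPRC was above it only in Zeo, at 17.8, and CD3E, at 48.7, 26.6 and 34.3, and HBB, at 165, 122 and 116, were above it throughout. Of 3 endothelial markers CDH5 was below the floor, VWF was above it only in RECK, at 16.7, and PECAM1 read 108, 70.3 and 72.4.

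Ribosomal protein signals lay near the top of the scale. Of the 52 members, 40 had a mean signal of at least 10000, and they made up 40 of the 84 genes at that level. Another 9 lay between 1000 and 10000 and 3 below 1000, and 44 members were in the top 1% of genes. The median member read 13299, 12271 and 12550, and the members together held 4.89%, 5.20% and 4.80% of all signal. A probe set's brightness depends on its probes as well as its transcript, so these signals do not rank the genes by abundance.

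**Figure D1:**
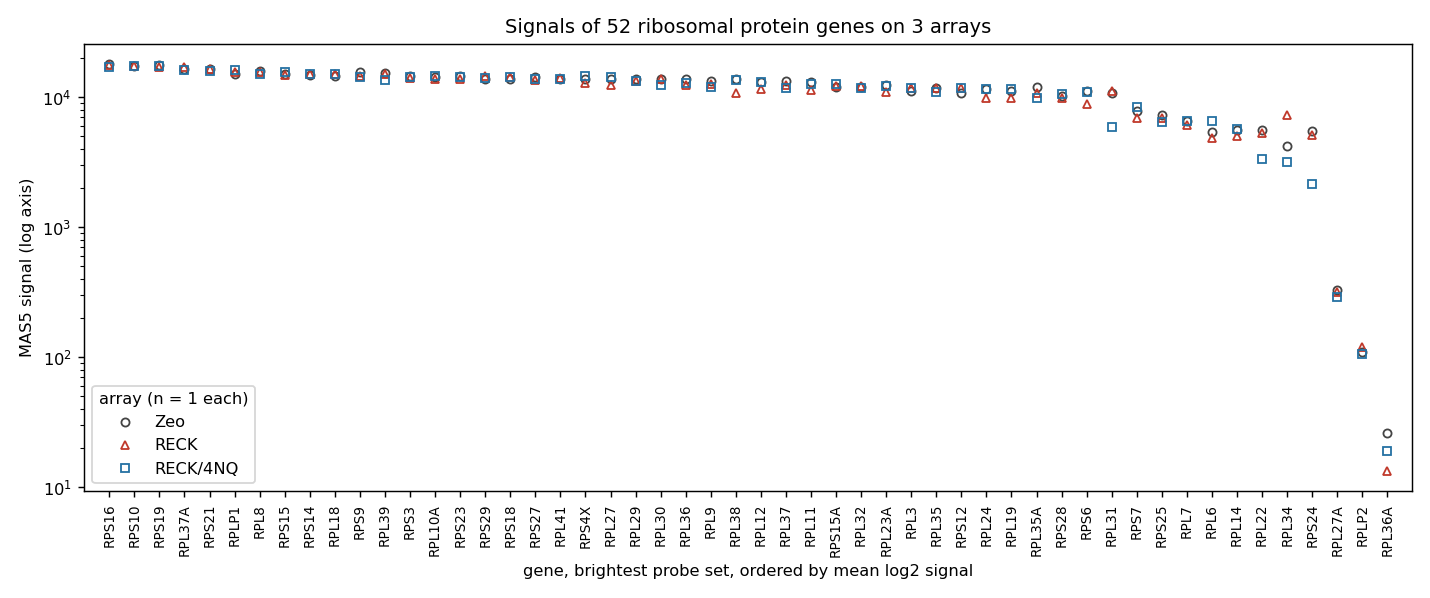
MAS5 signal (log axis) of the brightest probe set of each of 52 ribosomal protein genes on the Zeo, RECK and RECK/4NQ arrays, 1 array per line, ordered by mean log2 signal. For 25 genes the 3 symbols lie within 1.1-fold of each other; RPL31, RPL22, RPL34 and RPS24 are the bright genes whose symbols separate, and RPL27A, RPLP2 and RPL36A are dim.

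The 5 brightest members each differed by less than 1.1-fold between arrays, as 25 of the 52 did. RPS16, in the head of the small subunit, read 17909, 17546 and 17068. RPS10, a small-subunit protein mutated in some Diamond-Blackfan anaemia, read 17410, 17319 and 17385. RPS19, the gene most often mutated in that anaemia, read 17706, 17114 and 17232. RPL37A read 16524, 16931 and 16128, and RPS21 16597, 16442 and 16039. RPLP1, an acidic protein of the stalk that recruits elongation factors, read 15141, 15540 and 16283, among the higher ratios of RECK/4NQ to Zeo at a log2 ratio of 0.10.

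Between its highest and lowest array a member differed by a median of 1.11-fold, against 1.28-fold in the 940 other genes of the top 5% by level. The difference was under 1.1-fold in 25 of 52 members and 107 of those 940 genes, and at least 1.5-fold in 5 members and 201 others. At one level of signal the groups were closer. The robust spread (a scaled median absolute deviation, which equals the SD for normal values) of log2 ratios among the 40 members of at least 10000 was 0.10, 0.08 and 0.08, and among the 44 other genes of that brightness it was 0.13, 0.08 and 0.11. No member and no other gene at that level passed 1.5-fold in any of the 3 comparisons. The level is a mean over the same arrays, so a low signal on 1 array can move a gene below it. RPL31, at 10685, 11125 and 5910, is such a member, so the narrow ratios at this level are partly set by the cut. The highest signal of any probe set was 18920 to 19554, not far above the brightest members, and whether ratios are compressed at these signals was not tested. The level of 10000 was chosen after the values were seen.

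Probe sets of the same gene give a reading of noise between probe sets, since they share the RNA and the array. Of the members, 33 had more than 1 probe set, and 15 had more than 1 with a mean of at least 1000, giving 34 probe sets. Most of the 34 can match several transcripts, and whether they share probes or targets was not tested. Where they do, the ranges can understate noise between probe sets. Among these 15 genes the log2 ratios of a gene's probe sets covered a median range of 0.06, 0.05 and 0.07. The largest range in each comparison was that of RPL22, at 0.22, 0.18 and 0.23. Over all 52 members the robust spread between genes was 0.12, 0.11 and 0.13. That is another measure over another set of genes, so it cannot be set against these ranges. Agreement of probe sets says nothing about how another RNA preparation of the same line would have read.

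**Figure D2:**
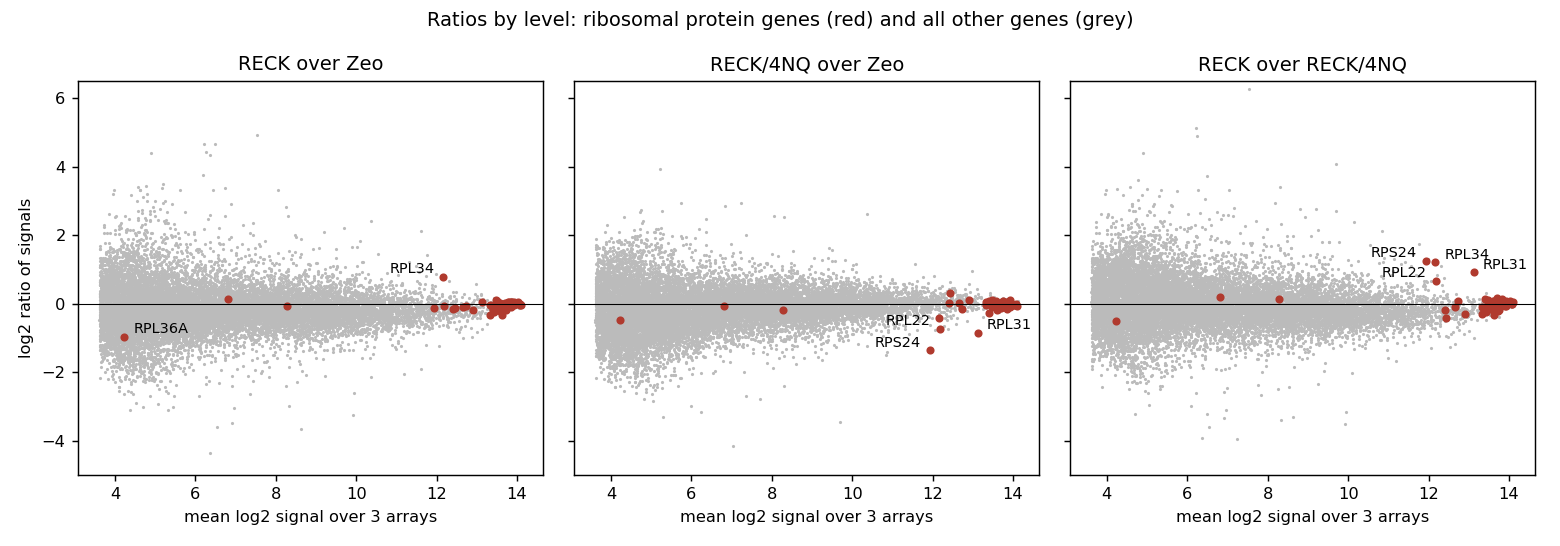
Log2 ratio of signals against mean log2 signal over 3 arrays for each comparison, with ribosomal protein genes in red and all other genes with a mean at or above the floor in grey; each point is 1 gene and the labelled points are the members past 1.5-fold. Most members cluster at the far right near 0, while RPS24, RPL31, RPL22 and RPL34 lie outside the cluster in the comparisons where they are named.

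In the RECK line against Zeo, 0 ribosomal protein genes were past 2-fold, against 4.03% of all genes higher and 6.7% lower, and 0.426% and 1.49% of other genes in the top 5% by level. The median log2 ratio was -0.06, close to the -0.05 of all 19775 genes. That wider set includes genes under the floor on both arrays, whose ratio is set to 0, which draws its median towards 0. The median of members was 0.14 above that of the 14282 genes at or above the floor, and 0.03 above it after quantile normalisation. The 44 other genes with a mean of at least 10000 had a median of -0.04, which is 0.15 above. Below 0 were 37 of 52 members, 33 of those 44 genes, 9297 of the 14282 and 10512 of all 19775. At 1.5-fold 1 member was higher, where 9.37% of all genes and 1.7% of other genes in the top 5% by level were, and 1 was lower, where 18.4% and 10.1% were. The median was -0.05 for the small subunit (20 genes, spread 0.07) and -0.07 for the large (32 genes, spread 0.14).

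The member above 1.5-fold was RPL34, a large-subunit protein, read by its only probe set. Its signals were 4247, 7285 and 3152. The RECK array was the high one and the RECK/4NQ array the low one, which is 1.72-fold above Zeo and 1.35-fold below it, and 2.31-fold between the transfected lines. The 20 nearest measured genes had median log2 ratios of -0.20 and -0.28 against Zeo. The other members with the highest ratios to Zeo were much closer to 1: RPLP2 at a log2 ratio of 0.13, the small-subunit genes RPS12 at 0.12 and RPS29 at 0.06, and RPL3, which lies near the peptidyl transferase centre, at 0.07.

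The member below 1.5-fold was RPL36A, whose probe set of 1 symbol is dim. Its signals were 26.3, 13.3 and 18.99, and the RECK signal lies just above the floor.

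RPS6, the small-subunit protein phosphorylated by S6 kinase, had the next lowest ratio. Its brightest probe set read 11213, 8814 and 10899. A second bright probe set read 11480, 7866 and 11078, and another 9045, 6642 and 8913. All 3 were lowest on the RECK array, 1.27-fold, 1.46-fold and 1.36-fold below Zeo, while RECK/4NQ lay within 1.04-fold of Zeo in each. A further, dim one read 103, 10.5 and 4.39. Genes next to RPS6 had median log2 ratios of -0.39 and -0.05 against Zeo, beside -0.35 and -0.04 for its brightest probe set. Genes at or above the floor had -0.195 and -0.12. A low value among neighbours was not particular to RPS6. For RECK over Zeo the neighbours of RPS3 had -0.46 and those of RPL38 -0.44. RPS3 itself was at -0.07 and RPL38 at -0.35. The part of neighbouring genes in the result was not tested.

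RPL38, known for its role in the translation of Hox mRNAs, read 13708, 10791 and 13515, 1.27-fold below Zeo on the RECK array. Its dimmer probe sets did not share one direction, at 832, 772 and 860, and at 542, 678 and 522. RPL24, at the subunit interface, read 11646, 9790 and 11597, and its other bright probe set 10022, 9566 and 10296. RPL11, a protein that binds MDM2 when ribosome assembly is disturbed, read 13080, 11342 and 12561. By the brightest probe set of each of these 3 genes the RECK array was the lowest, by less than 1.3-fold.

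In the RECK/4NQ line against Zeo, a few large differences stood beside a tight majority. Of 52 members 1 was lower by at least 2-fold and 0 were higher, against 7.13% and 2.81% of all genes and 0.213% and 0.106% of other genes in the top 5% by level. At 1.5-fold 3 were lower, which is 5.77% of members against 17.7% of all genes and 2.87% of other genes in the top 5% by level, and 0 were higher, against 7.89% and 1.7%. The median log2 ratio was -0.03, and its difference from that of the genes at or above the floor was 0.09 as deposited and -0.02 after quantile normalisation, so its side depends on the scaling. All 19775 genes had a median of 0.00, with genes under the floor on both arrays set to 0. Of the 52 members 33 lay within 0.1 of 0, as did 32 of the 44 other genes with a mean of at least 10000. The counts were 311 of 940 other genes in the top 5% by level and 2416 of the 14282 genes at or above the floor. Of all 19775 genes 6188 lay there, a count that includes the genes set to 0 by the floor.

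RPS24, a small-subunit gene with alternatively spliced 3' exons that is also mutated in Diamond-Blackfan anaemia, was the member past 2-fold. Its signals were 5518, 5081 and 2147. Zeo and RECK were alike and RECK/4NQ was 2.57-fold below Zeo. Its other probe set was dim and also lowest there, at 28.5, 27.2 and 17.6. The 20 nearest measured genes had a median log2 ratio of -0.03 for RECK/4NQ over Zeo.

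RPL31, which lies by the exit of the peptide tunnel, read 10685, 11125 and 5910, 1.81-fold below Zeo. Its 2 dim probe sets were lowest on the same array, at 110, 98.6 and 62.0, and at 43.8, 17.6 and 6.34, the last below the floor. Neighbouring genes had a median log2 ratio of -0.36.

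RPL22, a large-subunit protein that also binds viral and cellular RNAs, had 3 bright probe sets. They read 5554, 5294 and 3343, then 5305, 5724 and 3089, and lastly 5454, 5054 and 2888. RECK/4NQ was the lowest array in all 3, at 1.66-fold, 1.72-fold and 1.89-fold below Zeo (with median scaling the brightest was at a log2 ratio of -0.56, short of 1.5-fold), while RECK lay within 1.08-fold of Zeo. The dim probe sets read 401, 449 and 347, and 389, 255.6 and 254, so the last was low on the RECK array too. That last one is the only RPL22 probe set not marked as able to match several transcripts. The 3 bright ones are so marked and may not be independent readings of RPL22. Neighbouring genes had a median of 0.01.

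The other members were closer to Zeo. After these genes the lowest log2 ratios were those of the dim RPL36A at -0.47 and of RPL34 at -0.43. The highest was that of RPL6, a large-subunit protein, at signals of 5376, 4887 and 6595 and a log2 ratio of 0.29. RPS12, RPS7, RPLP1 and the X-linked RPS4X followed at 0.12, 0.11, 0.10 and 0.08. RPS7 was highest in RECK/4NQ by both of its probe sets, at 7854, 6862 and 8472, and at 6239, 5418 and 7013.

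**Figure D3:**
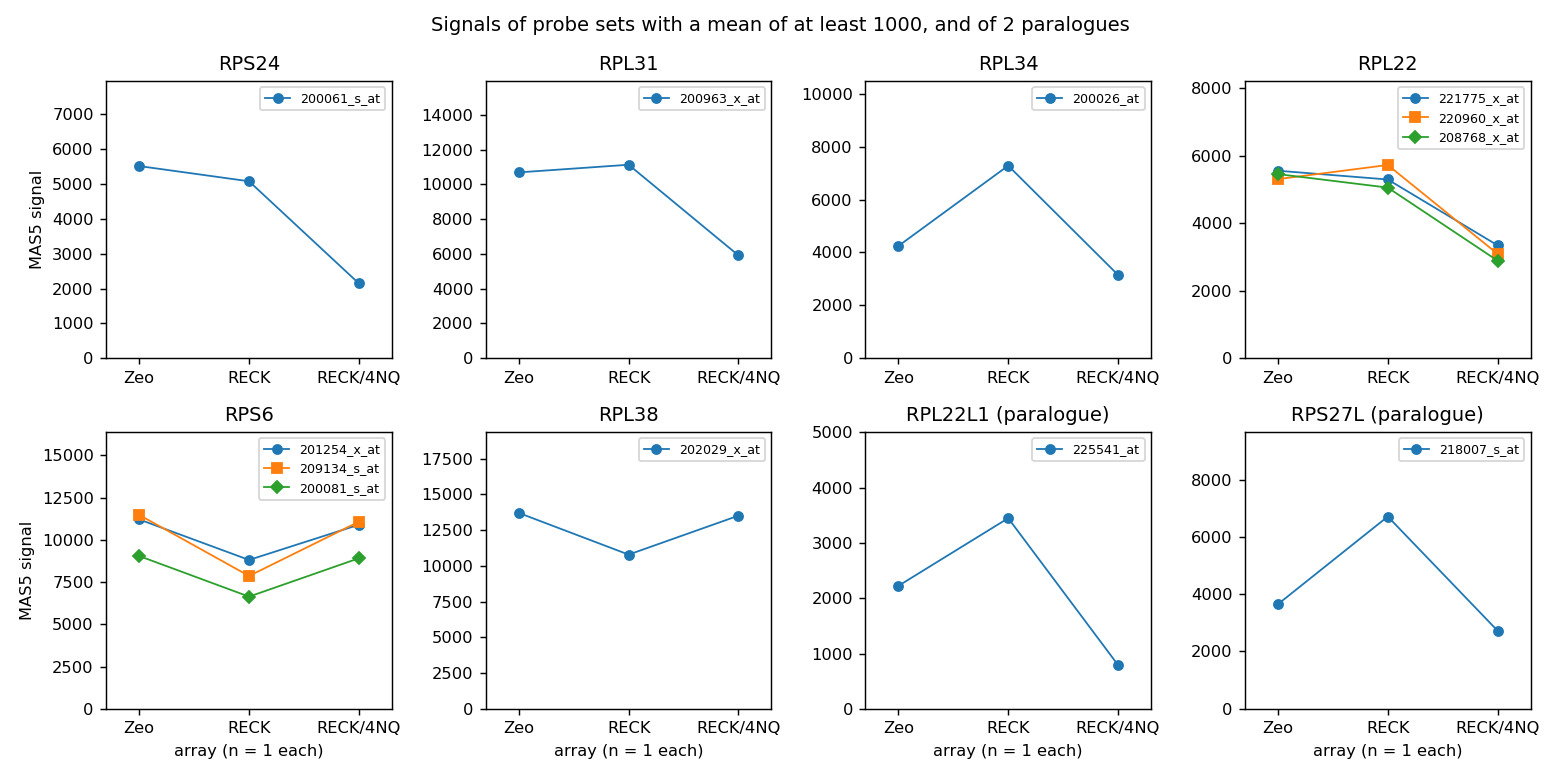
MAS5 signals on the Zeo, RECK and RECK/4NQ arrays (linear axis from 0, 1 array per line) for all probe sets with a mean of at least 1000 of RPS24, RPL31, RPL34, RPL22, RPS6 and RPL38, and for the paralogues RPL22L1 and RPS27L; lines join the values of 1 probe set. All 3 RPL22 probe sets are lowest in RECK/4NQ, all 3 RPS6 probe sets are lowest in RECK, and RPL34, RPL22L1 and RPS27L are highest in RECK and lowest in RECK/4NQ.

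Between the transfected lines, 2 members were at least 2-fold higher in RECK than in RECK/4NQ and 0 lower, against 5.76% and 4.47% of all genes and 1.28% and 1.6% of other genes in the top 5% by level. At 1.5-fold 4 were higher, 7.69% of members against 13.6% of all genes and 2.87% of other genes in the top 5% by level, and 0 were lower, against 13.3% and 11.7%. The 4 were RPS24 at 2.37-fold, RPL34 at 2.31-fold, RPL31 at 1.88-fold (past 2-fold with quantile or trimmed mean scaling) and RPL22 at 1.58-fold. The median log2 ratio of members was -0.005, which is 0.06 above that of the genes at or above the floor. All 19775 genes, those set to 0 by the floor included, had 0.00. RPL6 lay at the other end among bright members, at a log2 ratio of -0.43. This comparison shares its arrays with both others, so the same signals enter it.

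These 4 genes were all among the 9 members with a mean between 1000 and 10000. RPL31 falls there only through its RECK/4NQ signal, so placement in this group is not independent of the ratios. In that group the robust spread of log2 ratios was 0.06, 0.41 and 0.77, where the 1472 other genes of that level had 0.31, 0.26 and 0.33. The remaining 5, RPS7, RPS25, RPL7, RPL6 and RPL14, stayed under 1.5-fold in all comparisons.

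The 3 dimmest members lay far below the rest. RPL27A read 331, 318 and 291, RPLP2, the partner of RPLP1 in the stalk, 110, 120 and 105, and RPL36A as given above. Of all 111 probe sets, 43 had a mean below 1000 and 28 below 100. Among probe sets at or above the floor on every array, those of RPS14 differed most, by up to 1.27 in log2 ratio, followed by those of RPL37, by up to 1.16. In RPL22, RPS10 and RPS19 the difference reached 0.88, 0.84 and 0.98.

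The 47 bright probe sets that list a ribosomal protein symbol beside another, which name no gene here, gave a similar picture. Their median log2 ratio was -0.04, 0.007 and -0.03, with spreads of 0.10, 0.06 and 0.06. At 1.5-fold 0 passed in the first comparison, 1 was lower in the second, at a log2 ratio of -0.85, and 1 was higher in the third, at 0.92.

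The 9 paralogues left out by the rule were dimmer, at a median level of 869 against 12549 for the members. Their robust spread was 0.51, 0.10 and 0.54, against 0.12, 0.11 and 0.13 for the members, and 3 of them stood apart. RPL22L1, whose product can take the place of RPL22 in the ribosome, read 2225, 3449 and 793. It was highest in RECK and lowest in RECK/4NQ, 2.81-fold below Zeo in the latter and 4.35-fold apart between the transfected lines. Among the 940 non-member genes of the top 5% by level it had the lowest ratio of RECK/4NQ to Zeo and the highest of RECK to RECK/4NQ. RPS27L, known as a p53 target, read 3653, 6710 and 2725, which is 1.84-fold above Zeo in RECK and 1.34-fold below it in RECK/4NQ. RPS4Y1, the paralogue of RPS4X, read 5654, 8481 and 10929, highest in RECK/4NQ. Of the 9, none passed 2-fold in RECK over Zeo, 1 was lower in RECK/4NQ over Zeo, and 2 were higher in RECK over RECK/4NQ. Of all genes, 4.03% were higher and 6.7% lower in the first, 7.13% lower in the second and 5.76% higher in the third. RPL39L was below the floor on every array, and RPL3L was above it only in Zeo, at 12.6.

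The other genes of the pathway were taken from lists by function, not by their ratios. Of 14 translation factors and other TOP transcripts, 0 passed 2-fold in any comparison. Of all genes, 4.03%, 2.81% and 5.76% were higher by that fold and 6.7%, 7.13% and 4.47% lower. A list of 14 is too short to tell 0 from these shares. The median log2 ratios of the list were -0.14, -0.05 and -0.17. EEF2, the translocation factor, read 15226, 13742 and 14403, and EIF3H, a subunit of initiation factor eIF3, 572, 478 and 905. HNRNPA1 was lowest in RECK, at 739, 402 and 586.

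Of 25 ribosome biogenesis genes, 0 passed 2-fold against Zeo in either line, where 2.81% to 7.13% of all genes did per line and direction. The median log2 ratio was -0.35 for RECK over Zeo, which is -0.16 relative to genes at or above the floor. For RECK/4NQ over Zeo it was -0.07, which is 0.05 relative to them. All 19775 genes, those set to 0 by the floor included, had -0.05 and 0.00. The side on which the second value lies thus depends on whether those genes are counted. At 1.5-fold 6 of 25 were lower and 1 higher in RECK, where 18.4% and 9.37% of all genes were. RRS1, needed for large-subunit assembly, read 970, 526 and 911, and NOP14, of the small-subunit processome, 457, 252 and 540. Between the transfected lines 1 of the 25 was at least 2-fold higher in RECK and 2 lower, against 5.76% and 4.47% of all genes. The higher one was the box C/D snoRNP protein NOP58, at 108, 163 and 76.9. The lower ones were NOP14 and the RNA polymerase I subunit gene POLR1B, the latter at 220, 152 and 324. At 1.5-fold 1 was higher and 8 were lower, against 13.6% and 13.3% of all genes.

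Of 9 regulators of ribosomal protein transcripts none passed 2-fold, where 2.81% to 7.13% of all genes did per comparison and direction. A list of 9 is too short to tell 0 from these shares. MTOR came near the cut, at 1.98-fold below Zeo in RECK. MYC read 353, 284 and 334, LARP1 3363, 3081 and 3833, and MTOR, the kinase upstream of both LARP1 and S6 kinase, 86.6, 43.7 and 81.6, lowest in RECK. The list's median log2 ratio was -0.31 for RECK over Zeo and 0.00 for RECK/4NQ over Zeo, where genes at or above the floor had -0.195 and -0.12. All 19775 genes, those set to 0 by the floor included, had -0.05 and 0.00.

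**Figure D4:**
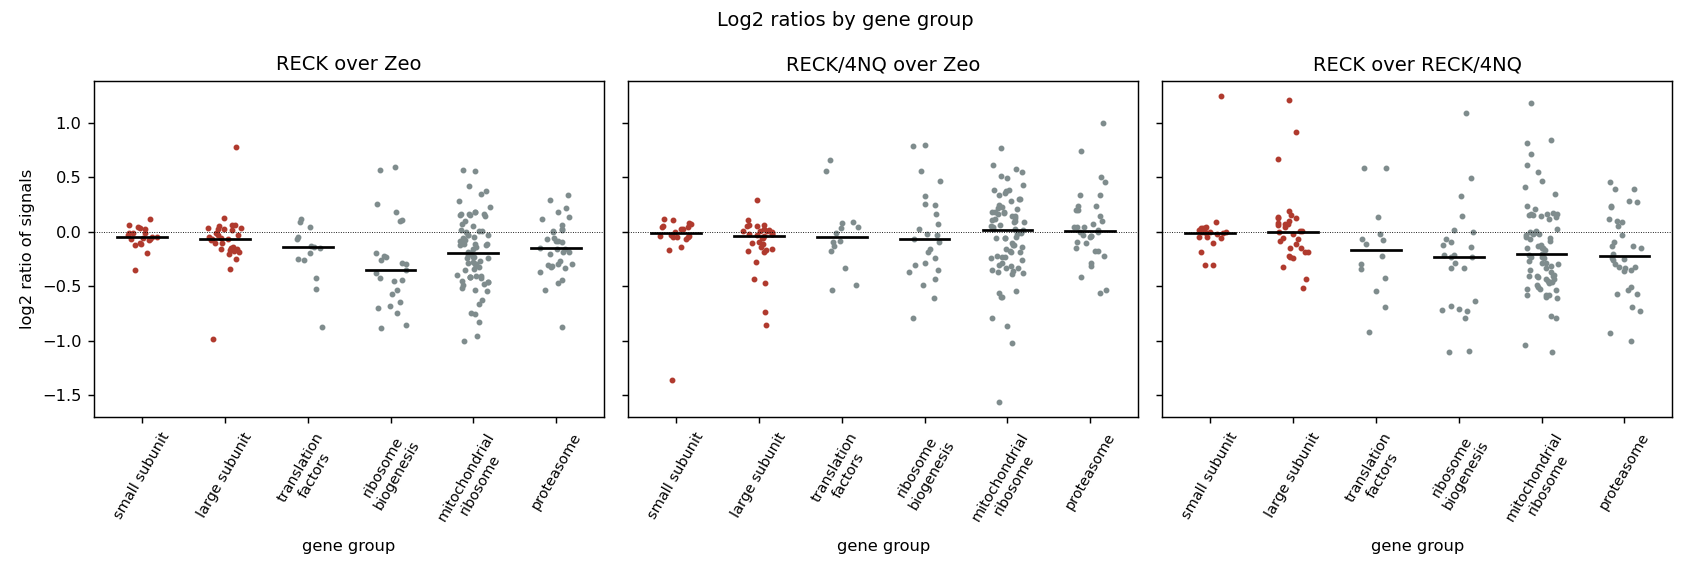
Log2 ratios of genes in 6 groups for each comparison, with ribosomal protein genes in red, other groups in grey, 1 point per gene (spread sideways for legibility) and a bar at the median. The small and large subunit points lie closer together than those of the mitochondrial ribosome and the proteasome, apart from RPS24, RPL31, RPL22, RPL34 and RPL36A.

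Other large complexes encoded by many genes were dimmer and wider in their ratios. The 75 mitochondrial ribosomal protein genes had a median level of 1168, and a robust spread of 0.31, 0.35 and 0.34. At 2-fold 1 was lower in RECK than in Zeo, MRPS2 at 3309 against 1649, and 2 were lower in RECK/4NQ, MRPL50 and MRPL42. Of all genes 6.7% and 7.13% were lower. None of the 75 was higher than Zeo in either line, against 4.03% and 2.81% of all genes. Between the transfected lines MRPL42 was higher in RECK, and MRPL57 and MRPS31 lower, against 5.76% and 4.47% of all genes. The 34 proteasome subunit genes had a median level of 1381 and spreads of 0.24, 0.27 and 0.45. In no comparison was any past 2-fold, where 2.81% to 7.13% of all genes were per comparison and direction. Their levels differ from those of the cytosolic ribosomal proteins, at a median of 12549, so the spreads are not compared at one level.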

How the data were processed

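Total RNA of 3 HT1080 lines was measured on 1 Affymetrix array each. The authors deposited linear intensity values from MAS5, per the submitters' processing notes, with the scaling target and genome build both not given in the sources used here. Each array held 54675 probe sets, of which 41091 had 1 symbol in the platform's annotation. Signals were used as deposited. For log2 ratios, lower signals were raised to a floor of 12.3, at percentile 40 of all values together. A gene passed a fold of 2 or 1.5 if its signals both reached the floor and differed by it, or 1 was below the floor and the other past the floor by that fold. With 1 array per line there is no test and no p-value, and the number of arrays limits the precision. Named members were RPLP1 and RPLP2, the 5 brightest and 5 dimmest, the 5 highest and 5 lowest ratios per comparison and the 5 with the largest difference between probe sets; others were named after their values were seen. From other lists up to 3 genes per direction were eligible. Neighbours were the 10 nearest genes on each side in the RefSeq table of GRCh38, members left out, with a mean at or above the floor. Start sequences are RefSeq's, matched by symbol. Members and lists were chosen with earlier results of these data known. Python 3.11.15, numpy 2.4.6, pandas 2.3.3 and matplotlib 3.10.9 were used. Alternatives covered scaling, the choice of probe set and the floor.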

Additional observations from a re-analysis of the deposited data

How the results depend on the processing

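No paired analysis was possible because each line has 1 array. A median counted as moved beyond 0.1 in log2, and a spread or count beyond 1.5 times. Scaling moved the medians: RECK over Zeo was 0.092 with median scaling and 0.12 with one trimmed mean, where it was -0.06 as deposited, so its sign depends on the scaling; RECK/4NQ over Zeo was 0.14 with median scaling, and RECK over RECK/4NQ 0.10 with one trimmed mean. After quantile normalisation the medians were 0.0004, -0.04 and 0.03. Scaling moved no spread or count beyond 1.5 times, but it moved single calls. With median scaling 2 members rather than 3 were past 1.5-fold in RECK/4NQ over Zeo, RPL22 being at -0.56, and with quantile or trimmed mean scaling 3 rather than 2 were past 2-fold in RECK over RECK/4NQ, RPL31 being at 1.04 and 1.02. With the standard deviation the spreads of RECK over Zeo, RECK/4NQ over Zeo and RECK over RECK/4NQ were 0.20, 0.26 and 0.33. The choice of probe set moved more of the spreads and counts. With the mean of all probe sets, 1 gene passed 2-fold and 4 passed 1.5-fold in RECK over Zeo, 6 and 9 in RECK/4NQ over Zeo (spread 0.17), and 4 passed 2-fold in RECK over RECK/4NQ (spread 0.21). With the second brightest probe set (33 genes), 6 passed 1.5-fold in RECK/4NQ over Zeo (spread 0.21), and 1 passed 2-fold and 9 passed 1.5-fold in RECK over RECK/4NQ (spread 0.31). Without probe sets that can match several transcripts (30 genes), 2 and 8 passed in RECK over Zeo (spread 0.21), 3 and 6 in RECK/4NQ over Zeo (spread 0.42), and 1 and 7 in RECK over RECK/4NQ (spread 0.37). Only 11 members keep their brightest probe set in that setting. A dimmer one was read for the others, so the setting changes brightness as well as the kind of probe set. With the floor at the 60th percentile, or only the 49 members of at least 1000 (chosen after seeing the data), 1 gene passed 1.5-fold in RECK over Zeo.

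No log2 ratio of a named gene past 2-fold changed sign under the other scalings, probe set choices and floors. RPS24, RPL31 and RPL34 rest on 1 bright probe set each, and the bright probe sets of RPL22 can all match several transcripts. Most brightest probe sets, 41 of 52, have an _s or _x suffix, which marks probes shared by several transcripts, and no replicate bears on any ratio.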
